A study of Sus scrofa with 9 samples.

Results

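The swine MHC class II genes (SLA-D, for swine leukocyte antigen) were taken as the probe sets whose only annotated gene symbol begins with SLA-D. There were 8 of them, 1 for each of 8 genes, among 27558 probe sets on the array, of which 13157 carried exactly 1 gene symbol and named 12217 genes. They were the classical genes SLA-DRA, SLA-DRB1, SLA-DQA1 and SLA-DQB1 and the non-classical genes SLA-DMA, SLA-DMB, SLA-DOA and SLA-DOB. All 8 matched a gene of the RefSeq pig table by gene number, and no other probe set named an SLA-D gene.

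Total RNA of 9 pig samples was measured on Affymetrix PorGene 1.0 ST arrays, 1 sample per array. The first group was 3 samples of esophageal submucosal glands (ESMG), and the second was the squamous tissue over the glands in the same 3 control pigs, numbered 37, 39 and 40. The third was 3 cultures of ESMG-derived spheroids, labelled pig 1, 2 and 3, grown in vitro in growth factor reduced Matrigel under Advanced DMEM/F12 with B27, N2, 10 mM HEPES and 50 ng/ml recombinant human EGF. How pigs 1, 2 and 3 relate to the tissue donors, is not stated in the labels, nor is the age or breed of any animal.

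MHC class II molecules are pairs of an alpha and a beta chain that show peptides from engulfed proteins to CD4 T cells. DR and DQ are the pairs that reach the cell surface, DM exchanges the peptide in the endosome, and DO restrains DM. Dendritic cells, macrophages and B cells make class II constantly under the coactivator CIITA, many epithelial cells make it on exposure to interferon gamma, and in pigs resting endothelial cells and some T cells carry it too.

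Values are log2 RMA levels, a log scale on which a difference of 1 is a 2-fold difference. A probe set was called at a Benjamini-Hochberg adjusted p under 0.05 in limma, over all 13157 named probe sets, together with a fold of at least 2. The array medians lay between 6.84 and 7.04, and the spheroid arrays stood apart on the first principal component (67.4% of the variance). On the second component pig 40 stood apart among the glands: its ESMG array scored 6.45, against 35.8 and 36.2 for the others and -35.3 to -18.9 for squamous tissue. Of 10 measured genes of simple and glandular epithelium, 8 were called higher in ESMG than in squamous tissue. The 4 measured genes of squamous epithelium were not called between the tissues, with a mean level from 11.61 to 12.28 in ESMG and 12.39 to 12.59 in squamous tissue. The precision is limited by 3 arrays per group.

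The 8 class II genes were lower in spheroids than in either tissue in mean level, by the most in SLA-DRA and SLA-DQA1 and by the least in the DO pair. Of the 8, 7 were called lower in spheroids than in ESMG and none higher, where 8.82% of all named probe sets were called lower and 8.12% higher. Against squamous tissue 6 were called lower and none higher, where the shares of all were 7.99% and 8.7%. Between ESMG and squamous tissue none was called, where 3.09% of all were called in either direction. In bulk samples, fewer cells that make a transcript and less of it per cell cannot be told apart.

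**Figure D1:**
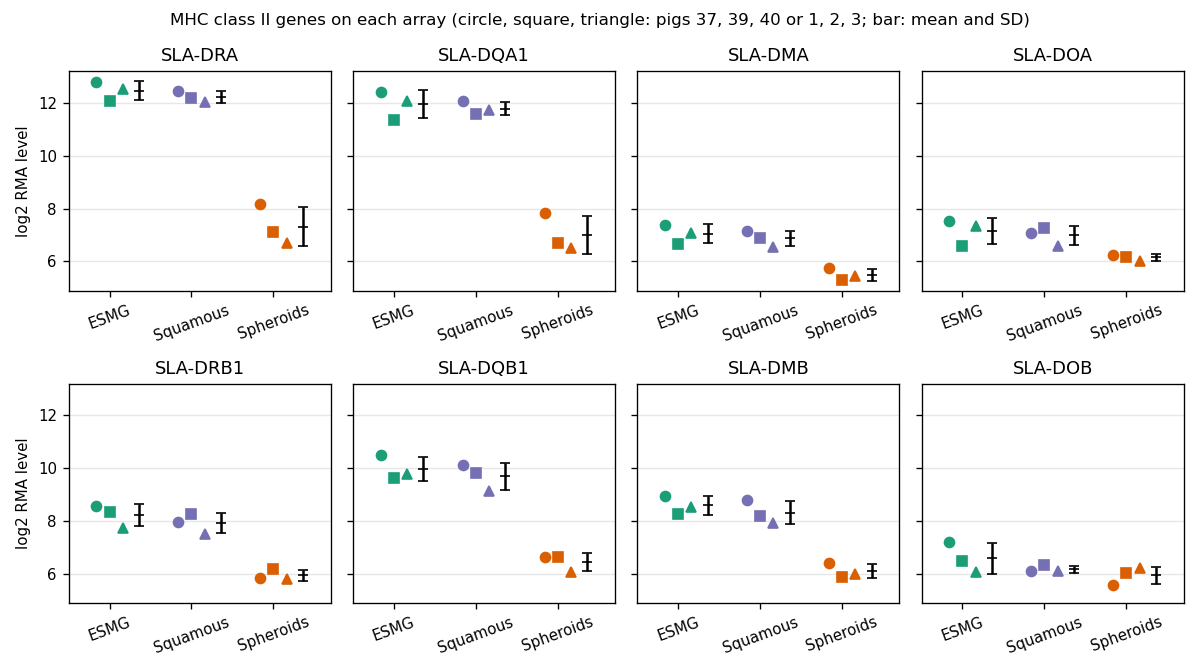
Log2 RMA level of each class II gene on each array, with the mean and SD (n = 3) of each group beside the points; alpha chains are in the top row and beta chains in the bottom row. The 3 spheroid arrays lie under all 6 tissue arrays for every gene except SLA-DOB, for which the groups overlap.

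The DR pair comes first among the classical genes. SLA-DRA, the nearly invariant alpha chain of DR, read 12.77, 12.06 and 12.51 in the ESMG of pigs 37, 39 and 40 and 12.46, 12.17 and 12.03 in their squamous tissue. In the spheroids of pigs 1, 2 and 3 it read 8.16, 7.11 and 6.69. All 3 spheroid arrays thus lay far under all 6 tissue arrays, and they also differed more among themselves (SD 0.75) than the ESMG arrays (SD 0.36) or the squamous arrays (SD 0.22) did. The gene was 35.0-fold lower in spheroids than in ESMG (log2 difference -5.13, SE 0.32, limma adjusted p = 3.75e-07) and 29.8-fold lower than in squamous tissue (-4.90, SE 0.32, adjusted p = 5.37e-07).

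SLA-DRB1, the polymorphic beta chain of DR, read 8.57, 8.35 and 7.73 in ESMG, 7.95, 8.27 and 7.51 in squamous tissue and 5.82, 6.19 and 5.81 in spheroids. Again no spheroid array reached the lowest tissue array. Its fold was smaller than that of SLA-DRA, 4.84-fold lower than in ESMG (-2.28, SE 0.24, adjusted p = 1.95e-05) and 3.91-fold lower than in squamous tissue (-1.97, SE 0.24, adjusted p = 5.42e-05).

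The DQ pair followed a like pattern, with the larger fold in its alpha chain. SLA-DQA1, its alpha chain, read 12.42, 11.35 and 12.07 in ESMG, 12.05, 11.58 and 11.71 in squamous tissue and 7.84, 6.70 and 6.51 in spheroids. The spheroid array of pig 1 was the highest of its group for this gene as for SLA-DRA. The level was 30.5-fold lower in spheroids than in ESMG (-4.93, SE 0.34, adjusted p = 8.46e-07) and 27.2-fold lower than in squamous tissue (-4.76, SE 0.34, adjusted p = 1.01e-06). SLA-DQB1, the beta chain of DQ, read 10.48, 9.61 and 9.77 in ESMG, 10.11, 9.80 and 9.12 in squamous tissue and 6.62, 6.63 and 6.06 in spheroids. It was 11.4-fold lower than in ESMG (-3.52, SE 0.28, adjusted p = 2.78e-06) and 9.45-fold lower than in squamous tissue (-3.24, SE 0.28, adjusted p = 4.43e-06), again with no overlap between spheroids and tissues.

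Both chains of the peptide exchange factor DM fell too, and here the beta chain had the larger fold. SLA-DMB, its beta chain, read 8.95, 8.25 and 8.53 in ESMG, 8.79, 8.20 and 7.93 in squamous tissue and 6.40, 5.88 and 5.98 in spheroids. That is 5.63-fold lower in spheroids than in ESMG (-2.49, SE 0.24, adjusted p = 1.15e-05) and 4.67-fold lower than in squamous tissue (-2.22, SE 0.24, adjusted p = 2.40e-05). SLA-DMA, its alpha chain, read 7.39, 6.67 and 7.06 in ESMG, 7.14, 6.90 and 6.56 in squamous tissue and 5.74, 5.31 and 5.43 in spheroids. It was 2.93-fold lower than in ESMG (-1.55, SE 0.21, adjusted p = 0.000122) and 2.59-fold lower than in squamous tissue (-1.37, SE 0.21, adjusted p = 0.000282). The spheroid arrays overlapped those of neither tissue for either chain. On the spheroid array of pig 2, SLA-DMA lay under that array's lower quartile of all probe sets (5.44). It was the only class II reading under the lower quartile of its array, and no detection call was used, so a fold that ends near this floor can be compressed.

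The DO pair changed least. SLA-DOA, its alpha chain, read 7.52, 6.60 and 7.35 in ESMG, 7.09, 7.28 and 6.59 in squamous tissue and 6.26, 6.17 and 6.02 in spheroids. The 3 spheroid arrays lay under all tissue arrays, though by little. Against ESMG the gene was at the fold minimum, 2.01-fold lower (-1.01, SE 0.24, adjusted p = 0.00534), and against squamous tissue it was 1.79-fold lower (-0.84, SE 0.24, adjusted p = 0.0151), which is under it. The call against ESMG was lost on the fold minimum under 6 of 18 alternatives, among them leaving out pig 37 (-0.82) or pig 40 (-0.91) from ESMG or pig 3 (-0.94) from the spheroids. Without the squamous array of pig 40 the fall against squamous tissue became a call (-1.04).

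SLA-DOB, the beta chain of DO and in many species a gene of B cells, was the exception. It read 7.21, 6.47 and 6.05 in ESMG, 6.09, 6.33 and 6.10 in squamous tissue and 5.57, 6.04 and 6.22 in spheroids, so all 3 groups overlapped. The log2 difference was -0.63 against ESMG (95% interval -1.21 to -0.06, adjusted p = 0.0748) and -0.23 against squamous tissue (-0.81 to 0.34, adjusted p = 0.539). Its difference from ESMG moved with single arrays, to -0.31 without the ESMG array of pig 37 and to -0.90 (adjusted p = 0.0116, under the fold minimum) without that of pig 40. With array weights it was -1.11 and was called.

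**Figure D2:**
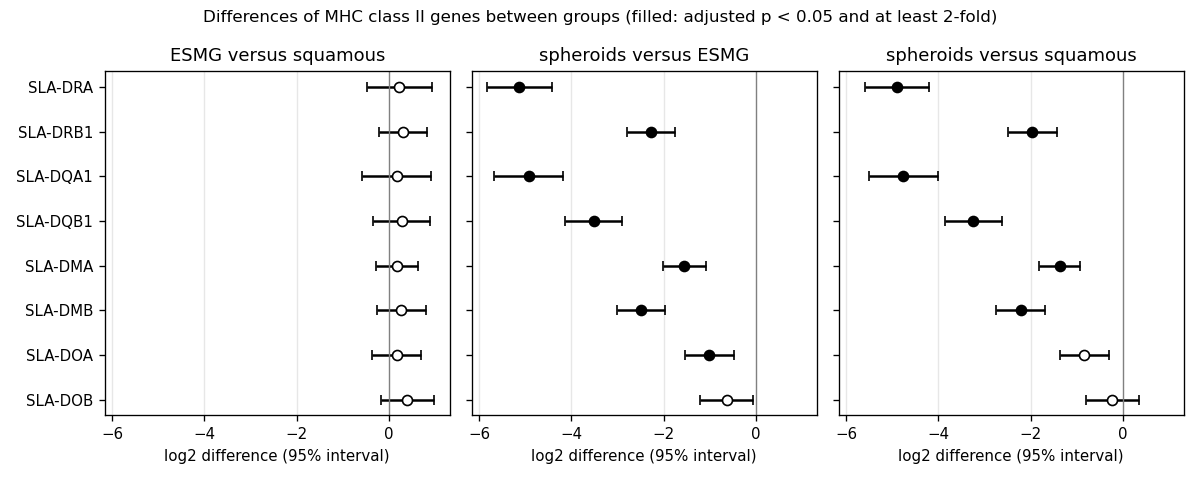
Log2 difference of each class II gene in the 3 comparisons, with its 95% interval from limma; filled points are called. Between ESMG and squamous tissue every interval spans 0, and in both spheroid comparisons the largest fall is that of SLA-DRA, at -5.13 and -4.90, and the smallest difference that of SLA-DOB, at -0.63 and -0.23.

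The spheroid comparisons share the 3 spheroid arrays, so their values stand side by side and do not support each other. The median log2 difference of the 8 genes was -2.38 against ESMG and -2.10 against squamous tissue, while that of all named probe sets was 0.09 and 0.03. Spheroids did not overlap ESMG, on the lower side, for 7 of 8 class II genes and for 20.8% of all named probe sets. They did not overlap squamous tissue in this way for 7 of 8 and for 21.8%.

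Changes were also compared between chains of a pair. Within each array, the difference between 2 chains was taken and compared between groups by a two-sided exact permutation test, which with 3 arrays against 3 cannot go below 0.1. From ESMG to spheroids SLA-DRA fell by 2.85 more than SLA-DRB1 on the log2 scale (change -2.85, exact p = 0.1), and SLA-DQA1 changed by -1.42 relative to SLA-DQB1 (exact p = 0.1). The DM pair went the other way, with SLA-DMA changing by 0.94 relative to SLA-DMB (exact p = 0.1). For these 3 pairs the arrays did not overlap between spheroids and ESMG. For the DO pair the arrays overlapped, with SLA-DOA changing by -0.38 relative to SLA-DOB (exact p = 0.6). The change between the alpha chains SLA-DRA and SLA-DQA1 was -0.20 (exact p = 0.2). Over the 15 tests made on 5 pairs the lowest adjusted p was 0.25, so no pair passed. SLA-DRB1, SLA-DMA and SLA-DOB lay near the floor in spheroids (5.81 to 6.19, 5.31 to 5.74 and 5.57 to 6.22), where a fold can be compressed. The array lower quartiles there ran from 5.36 to 5.44. The smaller fall of SLA-DMA than of SLA-DMB is subject to this limit too. These genes are polymorphic, and SLA-DRB4, SLA-DRB5, SLA-DQB2 and SLA-DYB are listed as pseudogenes in the same region, so a probe set can also bind related copies or match some alleles less well; this was not analysed here.

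ESMG and squamous tissue were compared to see whether the glands carry more class II than the lining above them. All 8 genes had a higher mean in ESMG, by 0.17 (SLA-DQA1, SLA-DMA and SLA-DOA) to 0.40 (SLA-DOB) on the log2 scale, with limma adjusted p from 0.470 to 0.852 and the lowest unadjusted p at 0.154 (SLA-DOB). Every group of arrays overlapped, where 21.5% of all named probe sets did not. For SLA-DRA the difference was 0.23 with a 95% interval of -0.47 to 0.93, so a difference of up to about that size in favour of ESMG is within the error.

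The 3 pigs did not give this difference alike. In pig 37 all 8 genes were higher in ESMG than in the squamous tissue of the same animal, by a median of 0.37, and in pig 40 7 of 8 were, by a median of 0.49. In pig 39 3 of 8 were, with a median of -0.15. The ESMG array of pig 37 was the highest of all 9 arrays for every class II gene. Without it, SLA-DQA1 (-0.07), SLA-DOA (-0.02) and SLA-DMA (-0.00045) had no higher mean in ESMG, and without the squamous array of pig 40 SLA-DOA (-0.03) and SLA-DQB1 (-0.002) had none. With pig as a fixed block on the 6 tissue arrays no class II gene was called either.

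The gene order of the region was read from the RefSeq table of assembly Sscrofa11.1, and no coordinates are given, since the sources name no build for the probes. On chromosome 7 it runs SLA-DRA, SLA-DRB1, SLA-DQA1, SLA-DQB1, SLA-DOB, TAP2, PSMB8, TAP1, PSMB9, BRD2, SLA-DMB, SLA-DMA and SLA-DOA, with unnamed loci and pseudogenes left out. The protein-coding genes lying among them were measured on the same arrays, except PSMB8 and the unnamed loci LOC100153139 and LOC106504372, which are not analysed here. TAP1 and TAP2, which carry peptides into the endoplasmic reticulum for class I, differed between spheroids and ESMG by 0.52 (SE 0.14, adjusted p = 0.00971) and 0.47 (SE 0.16, adjusted p = 0.0386), under the fold minimum. PSMB9, an immunoproteasome subunit, differed by -0.05 (from -0.33 to 0.19 over the alternatives), and BRD2, a bromodomain protein, by 0.02 (from -0.14 to 0.13). LOC100513097, an uncharacterised gene, differed by -0.62 (adjusted p = 0.0145). None of these 5 neighbours was called.

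Regulators of class II transcription were few on the annotated array, and CIITA, RFXAP, RFXANK and the invariant chain CD74 are not analysed here. The 6 measured genes of the regulator list were RFX5, NFYA, NFYB, NFYC, CREB1 and MARCH8, the last a ubiquitin ligase rather than a transcription factor. None was called in any comparison by limma, and their median difference between spheroids and ESMG was 0.09. That median joins changes of both directions, picked out after their values were seen. Without overlap, MARCH8 was lower in spheroids than in ESMG (7.29 to 7.42 against 7.80 to 8.26). NFYA (8.67 to 8.81 against 8.44 to 8.53) and NFYC (9.36 to 9.61 against 9.09 to 9.31) were higher. CREB1 read from 3.73 to 4.33, under the lower quartile on all 9 arrays, so its lack of a call is not informative. RFX5, a subunit of the factor that binds the X box of class II promoters, read 7.90, 7.96 and 7.75 in ESMG and 7.70, 8.07 and 8.01 in spheroids. Its difference was 0.05 (SE 0.14, adjusted p = 0.797) and turned to -0.10 after cyclic loess and -0.16 with array weights, to -0.0089 on leaving out pig 40 from ESMG and to -0.02 on leaving out pig 2 from the spheroids.

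Genes that prepare and load peptides split. Of 8 measured, 3 were called higher in spheroids than in ESMG and 1 lower, with a median of 0.49. The lower gene was CTSS, the cathepsin that trims the invariant chain, which read 9.65, 8.27 and 8.29 in ESMG and 6.58, 6.62 and 7.09 in spheroids (3.93-fold lower, -1.98, SE 0.35, adjusted p = 0.000768). It was 2.22-fold lower than in squamous tissue (adjusted p = 0.0198), a call lost on leaving out pig 37 from the squamous arrays (adjusted p = 0.0869) or pig 1 (0.0669) or pig 2 (0.0624) from the spheroid arrays. The higher genes serve lysosomes and endocytosis in many cell types: the adaptor subunit AP2A1 (2.81-fold), the cathepsin CTSH (2.26-fold) and the lysosomal membrane protein LAMP1 (2.16-fold). Without the ESMG array of pig 39 the difference of CTSH was 0.95, under the fold minimum.

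Class I presentation genes, which serve almost all nucleated cells, did not go with class II in number of calls. Of 18 measured, 1 was called higher in spheroids than in ESMG, TAPBP, the loading chaperone tapasin (2.21-fold, adjusted p = 0.000373), and 1 lower, the trimming peptidase ERAP2 (2.03-fold, adjusted p = 0.00507). Both lay near the fold minimum: TAPBP was at 0.97 after cyclic loess and ERAP2 at -0.76 without the ESMG array of pig 37, -0.90 without the spheroid array of pig 2 and -0.91 with array medians set equal. The list median was 0.07. B2M, the light chain of class I, read 11.98, 11.50 and 11.53 in ESMG, 11.56, 11.12 and 11.00 in squamous tissue and 10.90, 10.90 and 11.11 in spheroids (-0.70 against ESMG, adjusted p = 0.00884, under the fold minimum). SLA-3, a classical class I heavy chain picked out after its values were seen, differed by -0.25 (SE 0.23, adjusted p = 0.427). Several other class I heavy chains are near-identical copies, and probe sets named for several of them were not used.

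**Figure D3:**
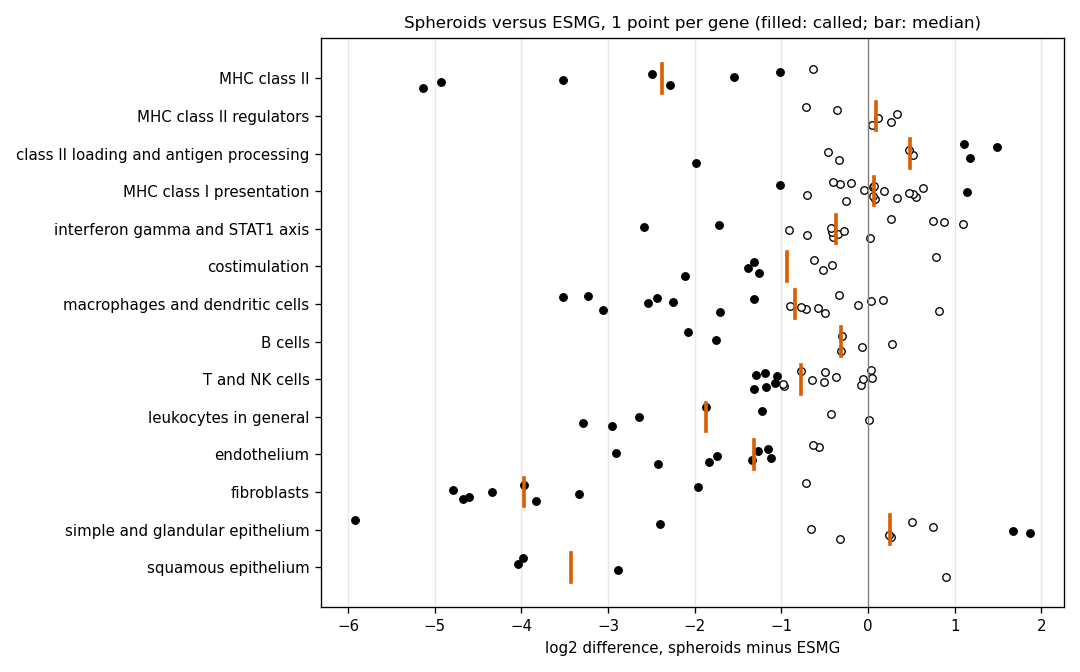
Log2 difference between spheroids and ESMG of every measured gene of the class II set and of 13 gene lists; each point is a gene, filled where called, and the bar is the list median. The class II median lies at -2.38, that of class I presentation at 0.07, that of macrophages and dendritic cells at -0.84 and that of fibroblasts at -3.97.

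The interferon gamma axis, which drives CIITA in epithelium, had 2 of 14 measured genes lower in spheroids than in ESMG and none higher. They were the chemokines CXCL9 (6.02-fold lower, -2.59, SE 0.56, adjusted p = 0.00281; -1.86 without the ESMG array of pig 37) and CXCL10 (3.31-fold lower, adjusted p = 0.00241). Both were also lower than in squamous tissue, by 4.34-fold and 2.91-fold, whereas IDO1, an enzyme that breaks down tryptophan, and the adhesion molecule ICAM1 were higher than in squamous tissue, by 2.51-fold and 2.45-fold. The list median was -0.37 against ESMG and 0.02 against squamous tissue. CXCL9 lay under the lower quartile on all 3 spheroid arrays, where a fold can be compressed. IFNG itself, picked out after its values were seen, read from 3.54 to 3.82 on the 9 arrays, under the lower quartile of each.

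Genes of the costimulation list, which also holds the inhibitory ligands CD274 and PDCD1LG2, were called lower in 4 of 8 against ESMG. Against squamous tissue 3 of 8 were lower, and none was higher in either comparison. CD80 was 4.31-fold lower than in ESMG (-2.11, SE 0.30, adjusted p = 0.000177), CD83 2.61-fold and PDCD1LG2 2.49-fold. CD80 was 2.42-fold, CD274 2.17-fold and CD86 2.06-fold lower than in squamous tissue. CD80 lay under the lower quartile on all 3 spheroid arrays and PDCD1LG2 on 2 of them, where a fold can be compressed. The calls on CD83 and PDCD1LG2 were lost, by the fold minimum, on leaving out the ESMG array of pig 40 (-0.91) and of pig 37 (-0.95), respectively. That on CD86 against squamous tissue was lost in this way without the squamous array of pig 37 or of pig 40 (-0.89 for the latter) and after each of the 3 other normalizations, the least being -0.86 after quantile normalization. That on CD274 was lost with array medians set equal (-0.99) and after quantile normalization (-0.97).

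Among markers of cells that carry class II, some were lower in spheroids and others were not called. Of 18 measured genes of macrophages and dendritic cells, 8 were called lower in spheroids than in ESMG, none higher and 10 not called, with a median of -0.84, and the mean level of the list ran from 7.44 to 8.05 in ESMG, 7.17 to 7.77 in squamous tissue and 6.34 to 6.57 in spheroids. C1QB, a complement subunit made by macrophages, was 11.5-fold lower (-3.52, SE 0.27, adjusted p = 1.84e-06), C1QC 9.40-fold and the pore protein MPEG1 8.32-fold. Against squamous tissue 8 were lower, among them MPEG1, C1QB and C1QC by 6.61-fold, 5.91-fold and 5.23-fold, and AIF1, a calcium-binding protein of macrophages, was higher (2.41-fold, adjusted p = 0.00314). On each spheroid array 3 of the 18 lay under the array's lower quartile. CD14, the monocyte receptor for endotoxin, differed by -0.50 from ESMG (adjusted p = 0.105). CD207, the langerin of Langerhans cells in stratified epithelium, picked out after its values were seen, read 7.07, 6.62 and 6.58 in squamous tissue, 6.07, 5.96 and 6.04 in ESMG and 5.27, 5.22 and 4.89 in spheroids.

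Markers of leukocytes in general were called lower in 5 of 7 against ESMG, and against squamous tissue in 4 with 1 higher, LCP1 (2.39-fold, adjusted p = 0.00392). The list mean ran from 8.07 to 9.29 in ESMG, 7.68 to 8.23 in squamous tissue and 6.71 to 6.95 in spheroids. PTPRC, the phosphatase CD45 of all leukocytes, read 9.65, 7.76 and 8.14 in ESMG, 8.29, 7.47 and 7.60 in squamous tissue and 5.76, 5.45 and 5.49 in spheroids (7.72-fold lower than in ESMG, adjusted p = 0.000113). The tetraspanin CD53 was 9.81-fold lower. None of the 7 lay under the lower quartile of any array. LCP1, an actin bundler, differed little between spheroids and ESMG (0.01, SE 0.28, adjusted p = 0.971), and it was the 1 gene of the leukocyte lists called between ESMG and squamous tissue (2.36-fold higher in ESMG, adjusted p = 0.0249; adjusted p = 0.0539 with pig as a random block), a call also lost without the ESMG array of pig 37 (adjusted p = 0.0890), the squamous array of pig 39 (0.0937) or that of pig 40 (0.0765).

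Lymphocyte markers were measured by lists for B cells and for T and NK cells, with medians of -0.31 and -0.77 against ESMG. Of 6 B cell genes 2 were lower in spheroids than in ESMG, CD180 (4.23-fold, -2.08; -1.42 without the ESMG array of pig 37) and BANK1 (3.37-fold), and CD79A, a chain of the B cell receptor, was not (-0.31, adjusted p = 0.522; 0.20 without the ESMG array of pig 37). CD180 lay under the lower quartile on all 3 spheroid arrays, where a fold can be compressed. Of 17 genes of T and NK cells 6 were lower, among them CD3D (2.47-fold), CD69 (2.45-fold) and NKG7 (2.29-fold). CD69 lay under the lower quartile on 8 of 9 arrays and CD3D on 2 of the spheroid arrays. CD3D, CD69 and NKG7 were each under the fold minimum without the ESMG array of pig 37 (-0.86, -0.87 and -0.89). CD3E had a log2 difference of -1.18 (adjusted p = 0.0403), and without that array it was -0.60 (adjusted p = 0.117); leaving out any single spheroid array also ended the call (adjusted p from 0.0595 to 0.113), as did leaving out the squamous array of pig 39 (0.0529). Against squamous tissue no T or NK cell gene was called, and of the B cell genes CD180 was (2.50-fold lower, adjusted p = 0.0332), a call lost in 9 of 17 alternatives, with adjusted p up to 0.128 without the squamous array of pig 37.

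Endothelial and fibroblast markers were called lower in 8 of 10 and 8 of 9 in each spheroid comparison. PECAM1, an adhesion protein of endothelium, read 10.42, 10.49 and 10.34 in ESMG and 8.37, 8.03 and 7.60 in spheroids (5.35-fold lower, -2.42, SE 0.19, adjusted p = 2.30e-06), and CD34 was 7.52-fold lower. The epithelial lists did not move as 1. Of 10 simple and glandular genes 2 were called higher in spheroids than in ESMG, the keratin KRT19 (3.65-fold) and the tight junction protein CLDN4 (3.18-fold), and 2 lower, the gland mucin MUC19 (60.4-fold) and the water channel AQP5 (5.26-fold), with a median of 0.25. Against squamous tissue 7 of the 10 were higher and none lower, with a median of 1.98. Of 4 squamous genes 3 were lower in spheroids in both comparisons, with medians of -3.43 against ESMG and -4.05 against squamous tissue: CRNN (16.4-fold and 21.9-fold), A2ML1 (15.8-fold and 22.0-fold) and the keratin KRT15 (7.39-fold and 12.6-fold). The other, the keratin KRT5, picked out after its values were seen, was not called but went the other way. It read 13.89, 13.69 and 13.69 in spheroids, 12.42, 13.00 and 13.12 in ESMG and 13.15, 13.33 and 13.39 in squamous tissue. EPCAM, a marker of simple epithelium, read 10.91, 11.00 and 10.11 in ESMG and 10.17, 10.15 and 10.75 in spheroids (-0.32, adjusted p = 0.334). The part of these other cell types in the class II values was not tested.

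**Figure D4:**
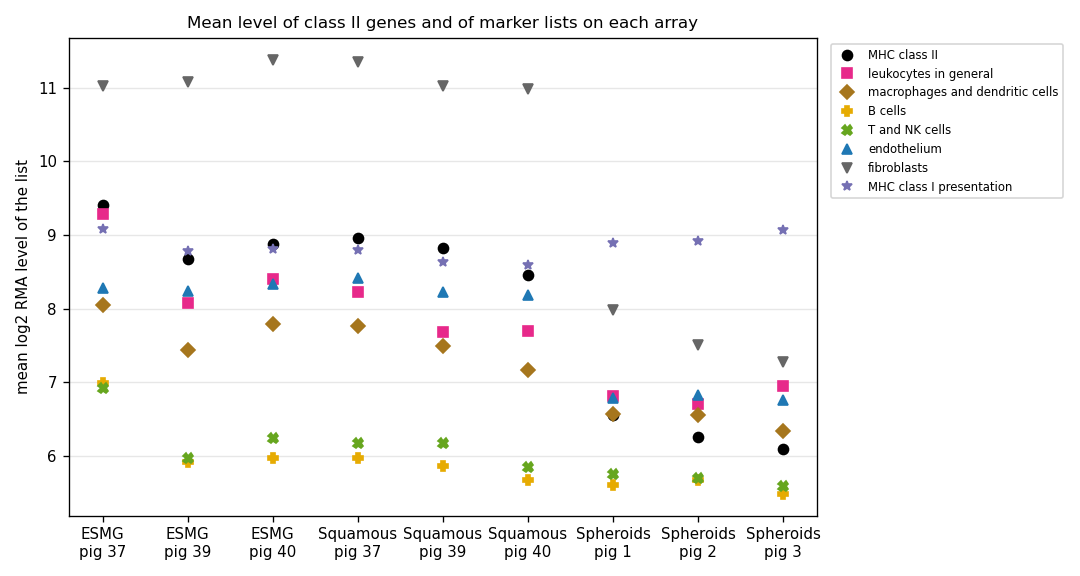
Mean log2 RMA level, on each of the 9 arrays, of the 8 class II genes and of 7 gene lists; each point is 1 array and levels are to be compared within a list, not between lists. The class II mean ran from 8.67 to 9.41 in ESMG, 8.45 to 8.96 in squamous tissue and 6.09 to 6.55 in spheroids, and both its highest value and that of the leukocyte list (9.29) were on the ESMG array of pig 37.

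Within groups, single arrays that were high for class II were high for other lists too. On the ESMG array of pig 37, with a class II mean of 9.41 against 8.67 and 8.88 in pigs 39 and 40, the mean of the leukocyte list was 9.29 against 8.07 and 8.40, that of the B cell list 6.99 against 5.91 and 5.97 and that of the T and NK cell list 6.92 against 5.97 and 6.24. The endothelial mean there was 8.28 against 8.24 and 8.34. On the spheroid array of pig 1, where 5 of 8 class II genes were highest among spheroids, the class II mean was 6.55 against 6.25 and 6.09 and the fibroblast mean 7.98 against 7.50 and 7.28. The leukocyte mean on it was 6.81 against 6.71 and 6.95. Without that array the fall of SLA-DRA against ESMG was -5.55 and that of SLA-DQA1 -5.34, so the class II calls do not rest on it.

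For each class II gene, the nearest of 11070 other named genes were found by the root-mean-square distance between log2 profiles over the 9 arrays, each centred on its own mean. Nearest to SLA-DRA were COL1A2 (0.391), FGL2 (0.395), COL3A1 (0.420), LAMA2 (0.47) and ENPP2 (0.47). To SLA-DQA1 they were FGL2 (0.367), COL1A2 (0.410), COL3A1 (0.436), LUM (0.453) and ENPP2 (0.465). COL1A2 and COL3A1 are fibrillar collagen chains, and FGL2 is a fibrinogen-like protein made by macrophages, T cells and endothelium. The distance of SLA-DRA to SLA-DQA1 was 0.144, smaller than to any of these. Its distances to the other class II genes were larger than to these, from 0.838 (SLA-DQB1) to 2.24 (SLA-DOB). That to SLA-DRB1, the other chain of DR, was 1.45. The profiles were centred but not scaled, so a distance also reflects how far each gene fell in spheroids, and SLA-DRB1 fell less than SLA-DRA. These distances therefore do not show that SLA-DRA follows the collagens more closely in shape than it follows SLA-DRB1. Nearest to SLA-DQB1 were SERPING1 (0.250) and C1R (0.271), of the complement system, UBD (0.275), a ubiquitin-like protein, MPEG1 (0.297) and CLIC2 (0.332).

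The 5 nearest are also given for the DM genes and SLA-DRB1, and only the nearest for the DO genes. SLA-DMB was nearest to FCER1G (0.208), the signalling chain of Fc receptors, FLI1 (0.213), a transcription factor of blood and endothelium, C1QA (0.243), TYROBP (0.260), a signalling adaptor of myeloid and NK cells, and NAAA (0.265), a lysosomal amidase. SLA-DMA was nearest to ECSCR (0.153), an endothelial surface protein, PLXNC1 (0.157), CSF1R (0.192), the macrophage growth factor receptor, MIR1296 (0.204) and ATP8B4 (0.225). SLA-DRB1 was nearest to RUBCNL (0.165), SLC23A1 (0.269), LPAR1 (0.278), PDCD4 (0.286) and LIMCH1 (0.293). SLA-DOA was nearest to CFP (0.144), the complement factor properdin, and SLA-DOB to VAT1L (0.191). A distance is small also for any gene of small change, so the values of SLA-DOA and SLA-DOB are not to be set against those of SLA-DRA.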

How the data were processed

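The authors deposited log2 levels, made with RMA at gene level in Affymetrix Expression Console as the labels state. The submitters' processing notes also name Transcriptome Analysis Console 3.0, without saying what it did. RMA corrects background, makes array distributions alike and summarises probes, which compresses differences near the floor. The Expression Console version and the genome build were not given in the sources used here. Of the 9 value columns, 0 were unmatched to a sample.

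Symbols were those of the platform annotation, updated by gene number through RefSeq. A group-means model was fitted to the 9 arrays and all 13157 probe sets with 1 symbol in R 4.3.3 with limma 3.58.1 (lmFit, eBayes) (6 residual degrees of freedom), after a test on simulated data. Where a gene had several probe sets, list counts used the one with the highest mean. Tables used Python 3.11.15, pandas 2.3.3, numpy 2.4.6 and scipy 1.17.1. Whether spheroid cultures came from separate animals is known only from their labels.

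ESMG and squamous arrays of 1 number come from the same pig, so pig was fitted as a block in an alternative (statmod 1.5.0). Over named probe sets, deviations from the group means correlated at 0.423, -0.149 and -0.165 within pigs 37, 39 and 40.

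The members and the 13 gene lists (195 symbols) were chosen with earlier results of these data known. Named were all members; up to 3 called genes per list and comparison with the largest change; a fixed set of regulators and cell markers (CIITA, RFX5, RFXAP, RFXANK, CD74, CTSS, B2M, PTPRC, CD14, CD3E, CD79A, MS4A1, PECAM1 and EPCAM, where measured); and genes nearest in profile. Genes lying among the members on the chromosome, and those said to be picked out afterwards, were added later. Of the fixed set, CIITA, RFXAP, RFXANK, CD74 and MS4A1 were matched to no probe set with 1 symbol and are not analysed here. Alternatives changed the probe sets tested, the normalization, the filter, the weights, the prior, the arrays fitted, the fold minimum and the block, and left out each array in turn.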

Additional observations from a re-analysis of the deposited data

How the results depend on the processing

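The number of class II genes called was 0 between ESMG and squamous tissue in each of 21 alternatives, including both fits with pig as a replicate block, 6 to 7 between spheroids and ESMG in 19 and 5 to 7 between spheroids and squamous tissue in 19. The lowest count, 5, came with the dimmest 1 in 3 probe sets left out, which removed SLA-DMA and SLA-DOB from the test. The falls of SLA-DRA, SLA-DRB1, SLA-DQA1, SLA-DQB1 and SLA-DMB in spheroids were called in every alternative and those of SLA-DMA in every one that tested it; SLA-DRA ranged from -5.55 to -4.46 against ESMG and from -5.32 to -4.36 against squamous tissue.

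Of 2147 values of named genes under the alternatives, 2076 kept their direction and side of the threshold, 50 lost a call, 2 gained one (SLA-DOA and SLA-DOB, given above) and 19 changed sign. None of the 19 was called before or after, and the cause was not tested. Without the ESMG array of pig 37 these were SLA-DQA1 (-0.07), SLA-DOA (-0.02) and SLA-DMA (-0.00045) against squamous tissue, and CD79A (0.20), PSMB9 (0.19) and BRD2 (-0.03) in spheroids against ESMG. Without the squamous array of pig 40 they were SLA-DOA (-0.03), SLA-DQB1 (-0.002) and CD14 (-0.02) in ESMG against squamous tissue. The highest or lowest values on leaving out 1 array, at the other end from these, were 0.46 for SLA-DQA1, 0.45 for SLA-DOA, 0.36 for SLA-DMA, 0.49 for SLA-DQB1 and 0.44 for CD14 in ESMG against squamous tissue, and -0.69 for CD79A, -0.18 for PSMB9, 0.07 for BRD2 and 0.17 for RFX5 in spheroids against ESMG. In spheroids against ESMG, RFX5 was -0.10 after cyclic loess, -0.16 with array weights, -0.0089 with pig 40 left out of ESMG and -0.02 with pig 2 left out of the spheroids, and it was -0.03 against squamous tissue with array weights. BRD2 was -0.11 after quantile normalization, -0.14 after cyclic loess and -0.03 without the spheroid array of pig 1, and PSMB9 was 0.07 with array medians set equal and 0.07 without the spheroid array of pig 1. The count of all named probe sets called between ESMG and squamous tissue was 406, 430 with pig as a fixed replicate block, 366 with it as a random block and 614 without the ESMG array of pig 40. With all probe sets of the array tested, the counts went from 406 to 604, from 2229 to 4153 (spheroids against ESMG) and from 2196 to 4129 (spheroids against squamous tissue). Neither block changed a call on a class II gene, and of the other named genes the random block, but not the fixed one, ended that on LCP1 (adjusted p = 0.0539). With array medians set equal the median of all named probe sets moved from 0.09 to 0.20 between spheroids and ESMG. Signal near the array floor can limit the spheroid values, and so the folds, of SLA-DRB1, SLA-DMA, SLA-DMB, SLA-DOA and SLA-DOB (means 5.94, 5.49, 6.09, 6.15 and 5.94), since no detection call was used. The spheroid array of pig 3 was as low for SLA-DQB1 (6.06). How far the floor acts on these values was not tested.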
